A study of Mus musculus with 24 samples.

Results

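Embryonic mouse metatarsals exposed to 5 MPa of hydrostatic pressure were compared with metatarsals kept at 0 MPa, using the 8 libraries of the series that carry these labels, 4 controls and 4 at 5 MPa, of 24 libraries in all. The other libraries are metatarsals at 50 MPa (n = 4) and hip caps. The labels write the pressures in mPa and the methods of the study in MPa, and MPa is used here. The study called 5 MPa physiological and 50 MPa injurious, and the comparison asks which transcripts of growth plate cartilage differ after the lower pressure.

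Both groups came from C57/BL6 mouse embryos (C57/BL6J in the study's methods) at day 15 of gestation (E15), and each library holds 6 metatarsals pooled into 1 sample. No allele, transgene or drug distinguishes the groups. The bones were cultured for 24 hours, held for 1 hour in syringes inside a water-filled vessel at room temperature, at 0 or 5 MPa, and cultured for a further 24 hours before RNA was taken. The controls therefore went through the same handling without the pressure. The sex of the embryos and the litters behind each pool are not given in the sources used here, so p-values measure the spread between these pools. The study describes its RNA as partly degraded, and its libraries were made by depletion of ribosomal RNA. Control replicate 1 was sequenced in run 1 and the other 7 libraries in run 2.

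A metatarsal rudiment at this age is a rod of cartilage wrapped in perichondrium. Its chondrocytes divide, enlarge to hypertrophy and lay down a matrix of type II collagen and aggrecan that bone later replaces. Pressure is one of the loads that cartilage bears in life, and chondrocytes sense mechanical load through ion channels, integrins and their pericellular matrix. Explants of this kind also carry fragments of muscle, vessels, nerve and skin.

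The deposited estimated counts summed to between 4185557 and 17321026 in the controls, with the lowest total in control replicate 1, and to between 12404776 and 18144087 at 5 MPa. Levels below are in CPM, counts relative to the library size after TMM scaling, which sets library sizes so that most genes centre on no difference. A single gene, ENSMUSG00000119584, for which the annotation used here gives no symbol, held 21.5% to 26.6% of the counts of a control and 9.39% to 16.6% at 5 MPa, without overlap (8.62% to 16.2% at 50 MPa). Protein-coding genes held 50.7% to 57.8% of the counts in controls and 56.3% to 72.3% at 5 MPa. On log2 CPM, the median distance between a pair of controls was 94.6, between a pair at 5 MPa 71.6, and between a control and a 5 MPa library 83.5. Control replicate 1 lay farthest from the others, at a median distance of 101, beside 71 to 87.7 for the other libraries of both groups.

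Few genes passed the threshold between the groups, and those few share nearly all of their sequence with other genes. Of 52178 genes in the table, 19022 passed the filter on low counts. edgeR's quasi-likelihood test with Benjamini-Hochberg adjustment called 3 of them at an adjusted p of at most 0.05 (0.0158%), 1 higher (0.00526%) and 2 lower (0.0105%) at 5 MPa. An unadjusted p under 0.05 was reached by 441 genes with a higher mean (2.32%) and 392 with a lower mean (2.06%). All 4 values at 5 MPa lay above all 4 control values in 306 genes (1.61%), and below them in 235 genes (1.24%). The median log2 fold change over all genes was 0.00, 50.5% lay above 0, and the standard error had a median of 0.18. Without TMM scaling the median of all genes moved to 0.27, and the genes with an unadjusted p under 0.05 became 4119 higher and 63 lower.

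The sequences below show what the copies share with their partners. They are taken from the GENCODE M21 transcripts (GRCm38), 5′ to 3′, and each is identical in both genes of its pair. Capitals mark the first word of 31 bases, the length over which kallisto compares reads with transcripts by default. The stretches start at the start codon, which is position 1 of both transcripts for Gm28437 and mt-Co3, position 1 of Gm10443 and 91 of Rps28, and position 177 of both Gm13769 and Olfr1506.
Gm28437 and mt-Co3: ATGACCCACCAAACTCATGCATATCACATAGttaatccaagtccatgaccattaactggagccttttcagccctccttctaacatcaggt
Gm13769 and Olfr1506: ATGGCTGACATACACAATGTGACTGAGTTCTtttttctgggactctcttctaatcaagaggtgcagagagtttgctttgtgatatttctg
Gm10443 and Rps28: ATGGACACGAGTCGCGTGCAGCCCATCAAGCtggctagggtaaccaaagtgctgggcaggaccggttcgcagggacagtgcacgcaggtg
The identical run goes on for 783 bases of the 783 of Gm28437, 2340 of the 2340 of Gm13769, and 210 of the 210 of Gm10443. A read from such a run fits both genes, and the estimated counts then divide it between them.

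Gm28437 (ENSMUSG00000101111), annotated as an unprocessed pseudogene on chromosome 1, was the most firmly called gene. Its counts in control replicates 1 to 4 were 1373, 4187, 3739 and 2400, and it had 0 counts in all 4 libraries at 5 MPa. Its estimated counts fell at least 1476-fold, against a floor of 3 counts per library (edgeR's quasi-likelihood test with Benjamini-Hochberg adjustment, adjusted p = 4.93e-10). This is a bound on the estimate and not on the gene's own transcripts. All 753 of its 31-base words occur in other genes, in full in mt-Co3, which encodes subunit III of cytochrome c oxidase in the mitochondrial genome. mt-Co3 had 1324, 908, 847 and 1205 CPM in controls and 1319, 909, 1837 and 1732 CPM at 5 MPa, and these groups overlap. Gm28437 held 21.4% of the pair's counts in controls and 0.0% at 5 MPa. Added together, the pair had 1351 ± 249 CPM in controls and 1449 ± 424 CPM at 5 MPa (SD, n = 4 each; two-sided exact permutation test, p = 0.714).

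Olfr1506 (ENSMUSG00000075064), an odorant receptor gene on chromosome 2, fell in estimated counts, and Gm13769 (ENSMUSG00000089859), which carries the same sequence, rose in them. Olfr1506 had 8, 30, 46 and 29 counts in controls and 0 in every library at 5 MPa, at least 13.3-fold lower. Gm13769 had 0 counts in every control and 42, 32, 38 and 54 at 5 MPa, at least 7.12-fold higher. Both had an adjusted p of 0.00104 in edgeR's quasi-likelihood test with Benjamini-Hochberg adjustment. All the words of Gm13769 and 94.8% of those of Olfr1506 also occur in other genes. The sum of both genes was 2.53 ± 0.637 CPM in controls and 2.58 ± 0.357 CPM at 5 MPa (SD, n = 4 each; two-sided exact permutation test, p = 0.857). The counts of the pair thus lay wholly on one gene in controls and wholly on the other at 5 MPa, at an overlapping sum.

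Gm28661, a pseudogene on chromosome 1 whose 651 words all occur in mt-Co2 (cytochrome c oxidase subunit II), had 784, 11174, 3416 and 1774 counts in controls and 0 at 5 MPa. It did not pass edgeR's threshold across genes and passed that of DESeq2 (adjusted p = 6.75e-27). With mt-Co2 it summed to 1775 ± 258 CPM in controls and 1753 ± 374 CPM at 5 MPa (SD, n = 4 each; two-sided exact permutation test, p = 0.914). Gm10443, a copy of the small-subunit ribosomal protein gene Rps28, had 126, 80, 93 and 106 counts in controls (31.1, 5.4, 6.65 and 10.3 CPM, highest in replicate 1) and 0 at 5 MPa. It had an unadjusted p of 0.00629 in the edgeR fit and passed the threshold in run 2 alone (edgeR adjusted p = 0.000206) and in DESeq2 (3.04e-10). With Rps28 it summed to 211 ± 11.6 against 244 ± 24.6 CPM (SD, n = 4 each; two-sided exact permutation test, p = 0.0857). The histone gene Hist1h2ao had 4.69, 27.4, 10.6 and 7.28 CPM in controls and at most 0.408 CPM at 5 MPa. With Hist1h2ap, which shares most of its words, it summed to 37.3 ± 9.92 against 46.3 ± 6.66 CPM (SD, n = 4 each; two-sided exact permutation test, p = 0.171). All 5 of these sums overlapped between the groups, while each copy on its own did not.

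When the counts of each named gene with at least 90% of its words shared were added to those of the gene that shares most of them, edgeR called 0 of 19016 genes, and 435 higher and 385 lower genes had an unadjusted p under 0.05. This alternative was chosen after seeing the data. At 50 MPa, against the same control libraries, Gm28437, Gm28661 and Olfr1506 also had 0 counts in every library, and Gm13769 had 24, 44, 29 and 17. The loss was not uniform, as Gm10443 had 0, 0, 0 and 83 counts there and Hist1h2ao had 22, 5, 0 and 0. The 83 counts came from 50 MPa replicate 4, which was sequenced in run 1.

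**Figure D1:**
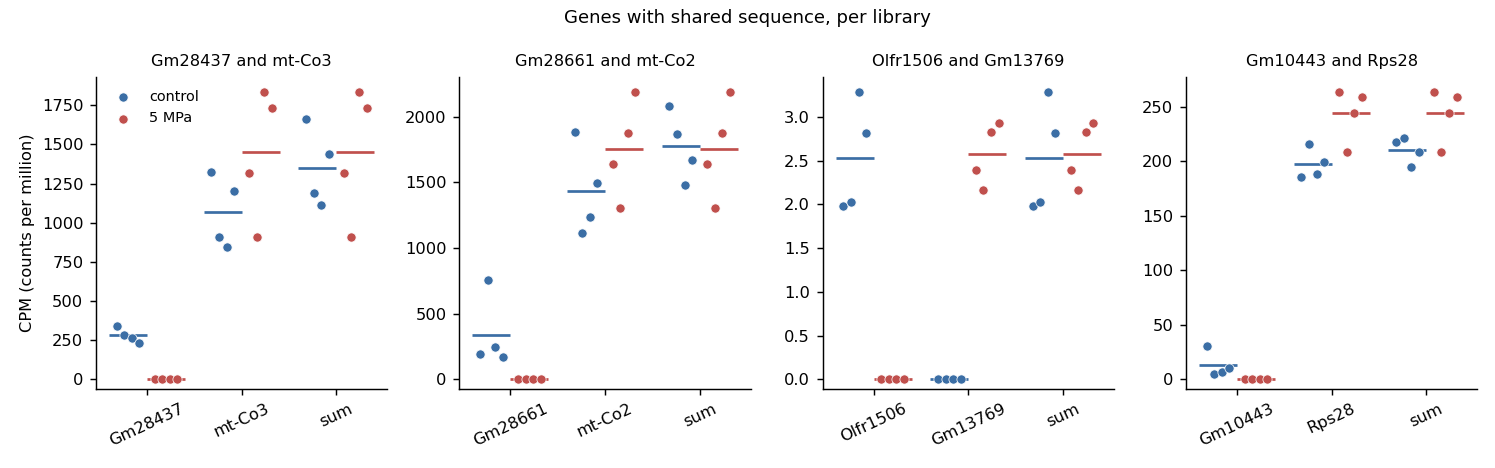
CPM of 4 gene copies, of the gene each shares its sequence with, and of their sum, in each of the 8 libraries (points; bars are group means). The 4 sums overlap between the groups, with means such as 1351 against 1449 CPM for Gm28437 with mt-Co3, while the copies do not, and Olfr1506 and Gm13769 exchange places.

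The 7 libraries of run 2 were fitted on their own, which leaves out control replicate 1. edgeR then called 9 of 19649 genes, 2 higher (0.0102%) and 7 lower (0.0356%), among them the same 3. An unadjusted p under 0.05 was reached by 881 higher (4.48%) and 963 lower genes (4.9%). At least 90% of the words of 5 of the 9 occur in other genes. The other 4 were Fcgr2b, Rpl22l1, Gm49151 and Gm26822. Fcgr2b, which encodes an inhibitory receptor for immunoglobulin G, had 16.1, 13.5 and 16.9 CPM in control replicates 2 to 4 and 7.39, 5.3, 5.8 and 8.02 CPM at 5 MPa (log2 fold change -1.24, adjusted p = 0.0194 from edgeR). Control replicate 1, which had been left out, had 1.48 CPM, below every library at 5 MPa. Rpl22l1, a paralog of a large-subunit ribosomal protein, had 36.9, 34.8 and 28.3 CPM in the same controls and 53.4, 50.8, 66.9 and 65.8 CPM at 5 MPa (log2 fold change 0.80, adjusted p = 0.0484 from edgeR). Control replicate 1 had 60.5 CPM, within the range at 5 MPa. For both genes, then, the control of run 1 lay on the side of the pressed libraries. The long noncoding RNA Gm26822 had 432, 409, 541 and 537 CPM in the 4 controls and 305, 262, 281 and 221 CPM at 5 MPa, without overlap (run 2 log2 fold change -0.91, adjusted p = 0.0274 from edgeR).

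DESeq2, the tool of the study's methods, was run here on the 8 libraries without the study's terms for run and library type. It is thus not a repeat of the study's fit. It called 19 genes, 6 higher and 13 lower, and 11 of them share at least 90% of their words with other genes. For 2 of the remaining 8 no words could be compared. Among the 8 were Pfdn5, Cox7c, Rps21, Rpl14, Bc1, Gm26822 and the abundant ENSMUSG00000119584, whose DESeq2 log2 fold change was -1.13 (adjusted p = 0.000852). None of these 7 passed edgeR's threshold over the 8 libraries, and Gm26822 passed it in run 2 alone and, with an adjusted p of 0.0418, without 5 MPa replicate 1.

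Of the 17 genes in the study's table for metatarsals at this pressure, 16 were matched here and 4 passed the filter on low counts. The table was chosen on these same libraries, so it is not independent evidence. Of those that were filtered out, Gm12671 and Gm10359, copies of the glycolytic gene Gapdh, had 21.7 CPM each in control replicate 4 and 0 in the other 7 libraries. Rpl10a-ps1 (15.0 CPM), Gm10052 (10.1 CPM) and Rpl21-ps15 (23.8 CPM) likewise had counts in control replicate 4 and in no other of the 8. Their higher control means thus rest on 1 library. Rps6-ps4 had 13.8, 0, 25.8 and 0.485 CPM in controls, Gm10222 had 119, 0, 15.0 and 0 CPM, and Gm5537 had 0, 8.71, 0 and 30.6 CPM, all with 0 at 5 MPa. For Rpl21-ps15, and for Rpl9-ps4, Gm15516 and Sept2 of the study's table, no sum with a partner was compared between the groups. The sums that were compared overlapped, as in Gapdh and its copies with 655 ± 150 CPM in controls and 717 ± 111 CPM at 5 MPa (SD, n = 4 each; two-sided exact permutation test, p = 0.486). Rps12-ps3 with Rps12 was the exception, at 317 to 395 CPM in controls and 405 to 482 CPM at 5 MPa (p = 0.0286 in a two-sided exact permutation test, the lowest value possible with 4 pools against 4).

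Endou, an endoribonuclease gene, had 0, 14.7, 0.0715 and 0.582 CPM in controls and at most 0.325 CPM at 5 MPa, so a single control is high. Its groups overlapped (two-sided exact permutation test, p = 0.343). Gsg1l, which encodes an auxiliary subunit of glutamate receptors, had 8.64, 23.6, 24.3 and 25.4 CPM in controls and 16.8, 15.2, 14.5 and 17.8 CPM at 5 MPa. Here 3 controls lay above all pressed libraries and control replicate 1 below them (log2 fold change -0.39, standard error 0.26, or -0.63 without that library, edgeR adjusted p = 0.0832). Zfp990, a zinc finger gene, had 2.96, 0.338, 0.357 and 0.68 CPM against 2.61, 2.17, 0.67 and 2.06 CPM (log2 fold change 1.25, standard error 0.66, or 2.06 without control replicate 1), and control replicate 1 lay above every pressed library.

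Among genes short of the threshold whose groups did not overlap, 9 with higher and 8 with lower values at 5 MPa were taken by lowest unadjusted p. The values that follow did not pass the adjusted threshold and describe only these libraries. Pfdn5, a subunit of the prefoldin chaperone, had 50.9, 52.6, 45.8 and 46.8 CPM in controls and 59.7, 68.8, 72.9 and 68.5 CPM at 5 MPa. Its log2 fold change was 0.46 (standard error 0.10, edgeR adjusted p = 0.667, unadjusted 0.000273). Cox7c, a nuclear-encoded subunit of cytochrome c oxidase, had 39.3, 35.0, 33.2 and 27.2 CPM against 42.2, 51.5, 58.9 and 53.6 CPM, a log2 fold change of 0.62 (standard error 0.13). Of the 9 genes named by this rule, 5 encode ribosomal proteins, namely Rps21 (log2 fold change 0.50), Rpl14 (0.47), Rpl36a (0.60), Rpl27a (0.45) and Rpl27 (0.45). Rpl36a had 134, 104, 100 and 74.8 CPM in controls and 157, 143, 167 and 159 CPM at 5 MPa. Its pseudogene copy Rpl36a-ps2, whose words all occur in Rpl36a, had 18.0, 24.1, 11.3 and 27.7 CPM in controls. At 5 MPa the copy had 4.94 CPM in replicate 1 and 0 in the others. The pair's sum was not compared between the groups. Erbb4, a receptor tyrosine kinase for neuregulins, had 3.7, 3.38, 2.93 and 3.98 CPM in controls and 6.02, 6.73, 4.91 and 6.02 CPM at 5 MPa. Its log2 fold change was 0.77 (standard error 0.20), beside 0.30 at 50 MPa against the same controls.

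Of the 8 genes with lower values at 5 MPa, 0 belong to the cartilage lists. Bc1, a small noncoding RNA that neurons use to repress translation, had 73.1, 118, 80.0 and 52.6 CPM in controls and 51.6, 33.7, 36.8 and 38.9 CPM at 5 MPa (log2 fold change -1.01, standard error 0.24, DESeq2 adjusted p = 0.00746). Pla2g4e, a cytosolic phospholipase, had 1.23, 3.44, 1.29 and 1.36 CPM against 0.341, 0.612, 0.595 and 0.921 CPM (log2 fold change -1.61). Card14, a scaffold protein of the NF-kappaB pathway known from skin, had a log2 fold change of -1.23, and the neuronal adhesion genes Igsf9b and Astn1 had -0.57 and -0.86. The odorant receptor genes Olfr898 and Olfr1564 had -0.90 and -0.66. Pla2g4e and Card14 are also expressed in skin, and the epidermal markers of control replicate 2, described below, moved with the former, whose value in that library was the highest. Their part in it was not tested.

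Cytosolic ribosomal proteins are the structural proteins of the ribosome. All 77 of their genes that were measured had a log2 fold change above 0 at 5 MPa, from 0.02 to 0.67 with a median of 0.30, beside 50.5% above 0 and a median of 0.00 over all genes tested. In 17 of them all 4 pressed libraries lay above all 4 controls (1.61% of all genes), and 47 had an unadjusted p under 0.05 with a higher mean (2.32% of all genes), but edgeR's adjusted threshold was passed by 0 of them. DESeq2 passed 2 (Rpl14 and Rps21), and edgeR passed 6 when no filter on low counts was set. The family was chosen with earlier results of these data known.

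Summed over the family, controls held 22097, 23232, 19858 and 18925 CPM, and the 5 MPa libraries held between 24293 and 27334 CPM. The groups do not overlap. Rpl30, of the large subunit, had 209, 183, 136 and 132 CPM in controls and 214, 235, 237 and 230 CPM at 5 MPa, a log2 fold change of 0.47 (standard error 0.14). Rps3, of the small subunit, had 353, 403, 308 and 305 CPM against 426, 469, 464 and 425 CPM, a log2 fold change of 0.38 (standard error 0.12). Rpl5, with the largest log2 fold change of the family (0.67), had 168, 221, 124 and 94.7 CPM against 197, 298, 234 and 238 CPM, and its groups overlap. Rplp0, the stalk protein, had 581, 648, 631 and 622 CPM against 679, 648, 813 and 723 CPM (log2 fold change 0.21). Rpl10 had a log2 fold change of 0.06, with overlapping groups.

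The median of the family was 0.30 within run 2 as well, and 0.29 at 50 MPa against the same controls. Over the other settings it lay between 0.25 and 0.55, and between 75 and 77 of the 77 stayed above 0. The 0.55 came from library sizes alone, which also put the median of all genes at 0.27. The share of counts on ENSMUSG00000119584 also differed between the groups. The share and the family's median each separated the groups without overlap, so the design cannot tell them apart. In control replicates 1 to 4 the family's median lay at 0.09, 0.14, -0.06 and -0.16 from the control mean on the log2 scale, with 21.5%, 26.6%, 25.8% and 21.9% of the counts on that gene. At 5 MPa the medians were 0.22, 0.23, 0.39 and 0.32, with 16.6%, 9.39%, 15.4% and 10.2% on it. With that gene and the mitochondrial genes left out of the scaling the median was 0.29. Ribosomal protein transcripts are short, with a median length of 1094 bases against 3152 over all genes tested, and the shortest of 5 equal bins of genes had a median log2 fold change of 0.05. Once each library's trend with length and GC content was removed, an alternative added after seeing the data, the family's median was 0.27. Many of these genes have processed pseudogene copies that share their words. Their counts thus carry the uncertainty described for Gm10443 with Rps28 and for Rpl36a-ps2 with Rpl36a. Whether RNA quality or the makeup of the libraries has a part in the pattern was not tested.

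**Figure D2:**
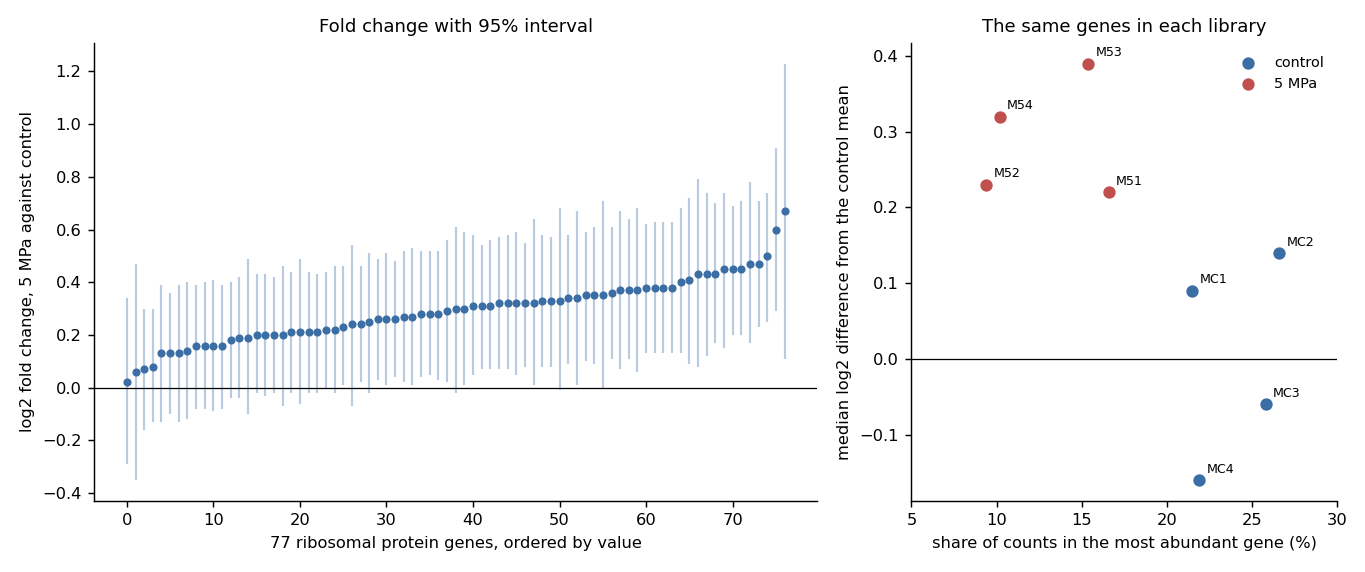
Left, log2 fold changes (5 MPa against control) of 77 cytosolic ribosomal protein genes with 95% intervals, all above 0 with a median of 0.30. Right, each library's median log2 difference from the control mean over these genes against the percentage of its counts on ENSMUSG00000119584; the pressed libraries lie at 0.22 to 0.39 and 9.39% to 16.6%, the controls at -0.16 to 0.14 and 21.5% to 26.6%.

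In the gene lists that follow, 0 members passed edgeR's adjusted threshold over the 8 libraries. For some lists the count of members with an unadjusted p under 0.05 is given, and for others only single members. Over all genes tested, 2.32% reached it with a higher mean and 2.06% with a lower mean. Nuclear genes of the respiratory chain, which supply most subunits of the mitochondrial complexes, had a smaller shift. Of 22 tested, 19 lay above 0 with a median log2 fold change of 0.15, 4 had an unadjusted p under 0.05 and 0 passed the threshold. Their sum was 876 to 934 CPM in controls and 938 to 1155 CPM at 5 MPa, so the highest control lay just under the lowest pressed library. Cox4i1, another cytochrome c oxidase subunit, had 74.8, 74.4, 69.6 and 74.8 CPM in controls and 79.5, 91.8, 110 and 97.8 CPM at 5 MPa (log2 fold change 0.37, standard error 0.11, unadjusted p = 0.00358 in edgeR). Uqcrc2, of complex III, had 41.4 to 45.2 CPM in controls and 46.4 to 56.2 CPM at 5 MPa. The abundant ATP synthase genes Atp5a1 and Atp5b had 0.17 and 0.15 with overlapping groups. The 13 proteins encoded in the mitochondrial genome had a median of 0.03, with 8 above 0 and 5 below, between -0.59 for mt-Atp8 and 0.44 for mt-Co3, the partner of Gm28437.

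Glycolysis genes and hypoxia-responsive genes, on which cartilage without vessels relies for energy, had 19 of 22 above 0 with a median of 0.12. Tpi1, triosephosphate isomerase, had 179, 202, 194 and 172 CPM in controls and 238, 219, 234 and 213 CPM at 5 MPa (log2 fold change 0.27, standard error 0.10). Ldha, which makes lactate, had 297 to 404 CPM against 412 to 454 CPM (0.26). In the glucose transporter gene Slc2a1 the libraries of both groups spread, with 205, 235, 135 and 126 CPM in controls and 151, 278, 125 and 124 CPM at 5 MPa. The list's median was -0.15 at 50 MPa against the same controls, beside 0.12 at 5 MPa, and the latter was -0.03 without 5 MPa replicate 2 and 0.04 without control replicate 4. Antioxidant and metallothionein genes had 13 of 16 above 0, with a median of 0.17. Their sum lay at 842 to 929 CPM in controls and 955 to 1099 CPM at 5 MPa, without overlap. Txnip, an inhibitor of thioredoxin and the most abundant of them, had 118, 125, 141 and 117 CPM against 150, 142, 173 and 142 CPM (0.28, standard error 0.11), while Mt2 and the glutathione peroxidase Gpx1 had 0.35 and 0.33 with overlapping groups.

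**Figure D3:**
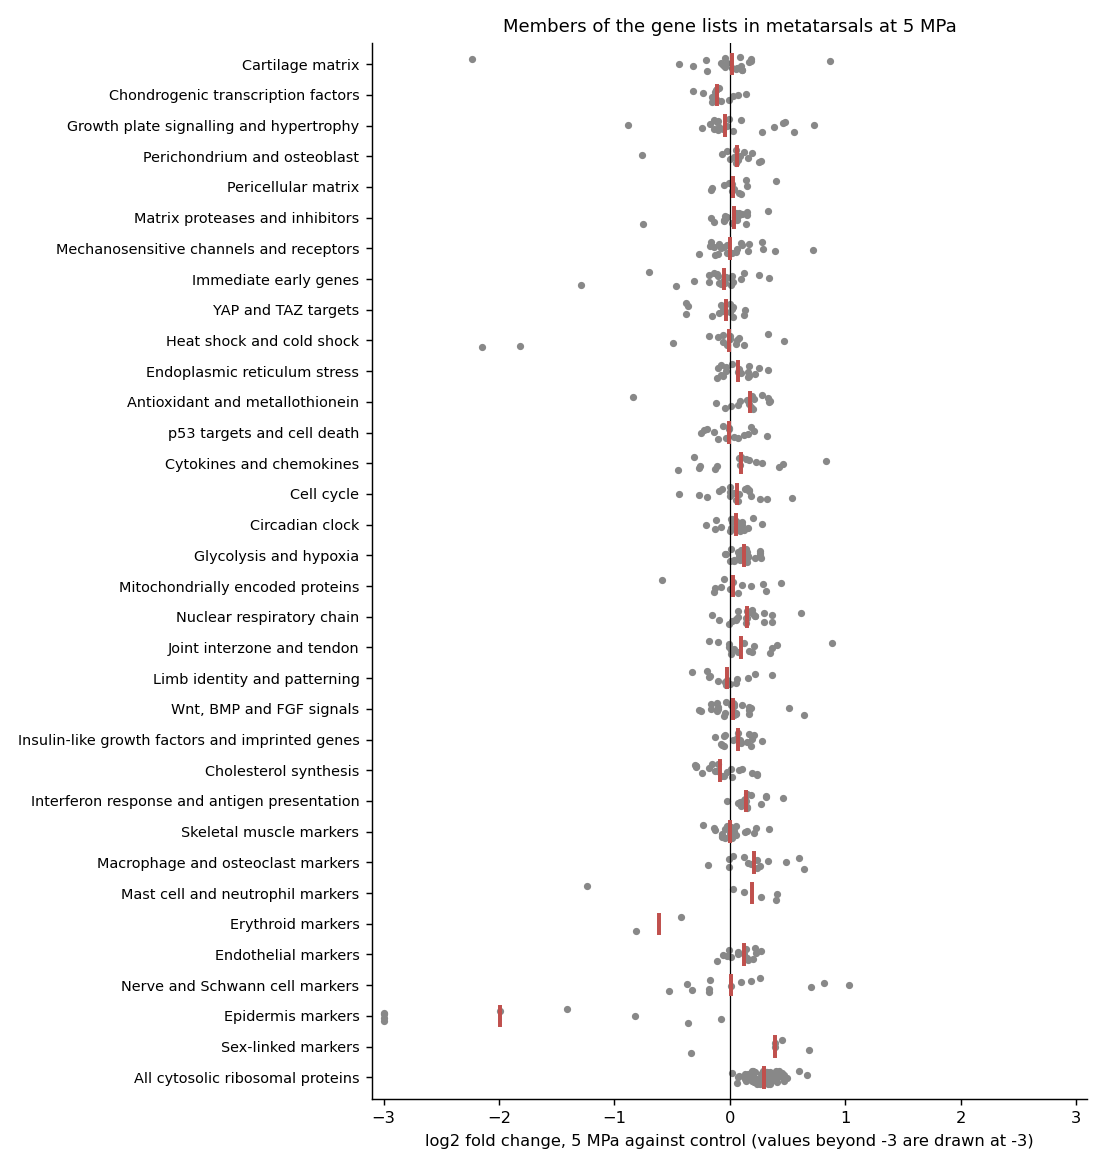
Log2 fold changes (5 MPa against control) of the members of 34 gene lists, 1 point a gene and a red bar at the median; values beyond -3 are drawn at -3. The ribosomal protein list is the one with every member above 0 (77 of 77, median 0.30), and the epidermis list has the lowest median (-1.99, or 0.10 without control replicate 2).

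No gene of the cartilage matrix passed the threshold. Of 21 tested, 11 lay above 0 and 10 below with a median of 0.02, and 0 had groups that did not overlap. Over all genes tested, 1.61% had groups without overlap that were higher at 5 MPa, and 1.24% lower. Col2a1, the chain of type II collagen, had 1504, 1120, 3272 and 1124 CPM in controls and 1079, 1974, 1205 and 1868 CPM at 5 MPa. Control replicate 3 is the highest and the other controls lie within the range at 5 MPa, and the log2 fold change was -0.20 with a 95% interval from -1.20 to 0.80. Col11a1, of the same fibrils, had 0.06 with an interval from -0.67 to 0.79. These intervals span differences larger than any ribosomal protein gene's. The summed list had 3191 to 8018 CPM in controls, highest in replicate 3, and 3417 to 5272 CPM at 5 MPa. Leaving out replicate 3 moved the list's median to 0.41.

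The member with the lowest value was Prg4, lubricin, which lubricates the joint surface, with 7.41, 18.7, 252 and 26.3 CPM in controls and 18.9, 12.8, 11.2 and 23.0 CPM at 5 MPa. Its log2 fold change of -2.23 (standard error 1.14) became -0.14 without control replicate 3. Ucma, a small secreted protein of young chondrocytes, had 2.47, 1.28, 3.93 and 1.55 CPM against 4.26, 3.6, 3.27 and 5.69 CPM, with overlapping groups. Its log2 fold change was 0.87 (standard error 0.34), and no other member had an unadjusted p under 0.05 in edgeR.

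Chondrogenic transcription factors had 3 of 14 above 0 and a median of -0.11. All members lay between -0.32 (Barx2) and 0.14 (Mef2c, which drives hypertrophy). An unadjusted p under 0.05 in edgeR was reached by 0 of them, beside 2.32% higher and 2.06% lower over all genes tested. Their sum was 1391 to 1518 CPM in controls and 1313 to 1498 CPM at 5 MPa. Growth plate signalling and hypertrophy genes, likewise with 0, had 8 of 20 above 0 and a median of -0.04. Col10a1, the collagen of hypertrophic chondrocytes, ranged from 0.247 to 19.1 CPM in controls and from 0.68 to 38.8 CPM at 5 MPa, a spread within each group that leaves its log2 fold change of 0.73 with an interval from -2.73 to 4.19, and at -1.34 without 5 MPa replicate 1. Ibsp, bone sialoprotein, had 70.4, 143, 231 and 61.9 CPM in controls and 278, 67.9, 221 and 132 CPM at 5 MPa. Mmp13, the collagenase of the ossification front, had 8.35 to 45.1 CPM against 7.96 to 15.6 CPM. Ptch1, a receptor and target of hedgehog signals, had 213 to 283 CPM against 205 to 245 CPM. In bulk tissue, the number of hypertrophic cells and the RNA per cell cannot be told apart.

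**Figure D4:**
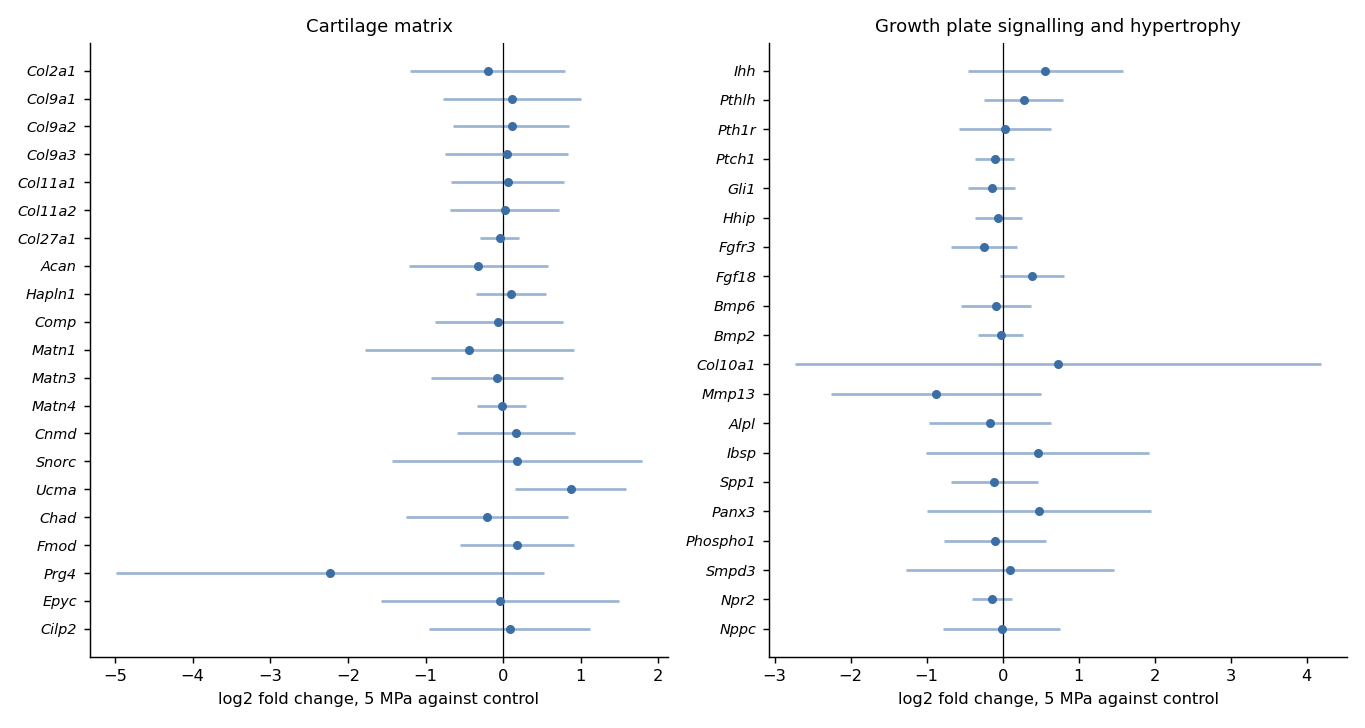
Log2 fold changes (5 MPa against control) with 95% intervals for the cartilage matrix list and the growth plate list. The medians are 0.02 and -0.04, and the intervals are widest for Prg4, Col10a1 and other genes that varied between pools.

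In the perichondrium and osteoblast list 10 of 14 lay above 0 with a median of 0.06. Col1a1, type I collagen, had 2860 to 5356 CPM in controls and 3384 to 4560 CPM at 5 MPa. Col3a1, type III collagen of loose connective tissue, had 1788, 1803, 1838 and 1673 CPM against 2013, 2471, 2335 and 1764 CPM (log2 fold change 0.27, standard error 0.12, unadjusted p = 0.0414 in edgeR). Pericellular matrix genes had a median of 0.03 over 12, between -0.16 for the perlecan gene Hspg2 and 0.40 for the decorin gene Dcn. Among 18 proteases and inhibitors the median was 0.03. Ctsk, the collagen-degrading cathepsin K, had 28.6, 27.0, 37.2 and 31.7 CPM against 37.5, 35.4, 48.3 and 35.7 CPM (0.33, standard error 0.13), and Mmp2 and Mmp14 had 0.14 and -0.05. The stromelysin gene Mmp3 had 57.1 CPM in control replicate 3, the library that was also highest in Prg4, and 9.63 to 25.7 CPM in the other controls.

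Channels and receptors of mechanical signals had 11 of 22 above 0 and a median of 0.00. Piezo1, Piezo2 and Trpv4, which open under membrane stretch or swelling, had -0.13, -0.10 and -0.27 (Trpv4 0.07 without control replicate 3). Cav1, caveolin of the membrane pits that flatten under tension, had 56.1, 52.4, 51.8 and 47.7 CPM in controls and 59.1, 61.5, 73.5 and 57.7 CPM at 5 MPa, a log2 fold change of 0.28 (standard error 0.10). The cation channel gene Trpc6 also had groups that did not overlap, at 0.388 to 0.878 CPM against 0.967 to 1.36 CPM. Immediate early genes, which respond to stimuli within the hour, were measured 24 hours after the pressure. They had 8 of 24 above 0 and a median of -0.05. Fosb had 1.23, 4.32, 1.14 and 1.46 CPM in controls and 0.852, 0.612, 1.41 and 0.65 CPM at 5 MPa (log2 fold change -1.29, standard error 0.47), and -0.55 without control replicate 2. Jun and Fosl2 had -0.04 and -0.08. Targets of YAP and TAZ, co-activators that follow cell tension, had 7 of 16 above 0, a median of -0.03 and a range from -0.38 to 0.13.

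Heat shock and cold shock genes had 7 of 16 above 0 and a median of -0.01. Rbm3, an RNA-binding protein induced by mild cold, had 68.7, 59.0, 68.9 and 61.0 CPM in controls and 75.9, 77.7, 84.6 and 84.8 CPM at 5 MPa, without overlap (log2 fold change 0.33, standard error 0.09, unadjusted p = 0.00295 in edgeR). Cirbp, the other cold-induced gene of the list, had -0.06. Hspe1, a mitochondrial chaperone, had 22.3 to 38.3 CPM against 35.8 to 48.6 CPM (0.47, standard error 0.15). Hspa1a, the inducible HSP70, had 10.9, 86.1, 4.72 and 3.2 CPM in controls and 4.94 to 7.82 CPM at 5 MPa. Its log2 fold change of -2.15 became 0.09 without control replicate 2. Genes of endoplasmic reticulum stress had a median of 0.07, and Hsp90b1 spread from 245 to 514 CPM in controls and from 250 to 602 CPM at 5 MPa. Targets of p53 had a median of -0.01. Zmat3 among them had 66.7, 68.9, 66.5 and 73.5 CPM against 56.2, 62.9, 62.3 and 50.9 CPM (-0.25, standard error 0.10), the death receptor gene Fas had 8.64 to 10.6 CPM against 9.48 to 13.7 CPM (0.32, standard error 0.15), and Cdkn1a and Mdm2 had -0.10 and -0.03.

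Cytokines and chemokines had 10 of 16 above 0 and a median of 0.09. Cxcl12, a chemokine of connective tissue, had 80.8, 80.5, 83.0 and 77.6 CPM in controls and 104, 87.8, 113 and 85.4 CPM at 5 MPa (log2 fold change 0.28, standard error 0.11, unadjusted p = 0.02 in edgeR). Ccl7, which draws monocytes, had 0.874 to 2.63 CPM against 2.46 to 4.69 CPM (0.83, standard error 0.34). The interferon and antigen presentation list had 15 of 16 above 0 and a median of 0.15 (-0.05 without control replicate 4). An unadjusted p under 0.05 in edgeR was reached by 0 members. The list's sum ranged from 557 to 1441 CPM in controls and from 990 to 1381 CPM at 5 MPa. B2m, for example, had 325, 314, 216 and 155 CPM against 347, 339, 283 and 280 CPM, with the lowest values in control replicates 3 and 4.

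Among Wnt, BMP and FGF signals the median over 27 was 0.03. Wnt5b, made by prehypertrophic chondrocytes, had 6.67, 6.35, 4.93 and 9.32 CPM in controls and 10.1, 9.24, 15.1 and 7.97 CPM at 5 MPa (log2 fold change 0.64, standard error 0.23, unadjusted p = 0.0155 in edgeR). Joint interzone and tendon genes had 12 of 16 above 0 and a median of 0.09. Kera, the proteoglycan keratocan, had 42.7, 27.4, 49.0 and 22.2 CPM against 48.8, 56.1, 92.2 and 63.1 CPM (0.89, standard error 0.31), and Wnt9a, a signal of the forming joint, had 6.67 to 10.6 CPM against 10.8 to 12.5 CPM (0.37). Wnt9a had -0.04 at 50 MPa against the same controls. Limb patterning genes had a median of -0.03, with Hoxd13, a gene of the digits and foot, at 0.05 and the hindlimb gene Tbx4 at 0.00. Both were measured in every library, with 70.4 to 95.6 CPM of Hoxd13 and 61.5 to 85.7 CPM of Tbx4. Insulin-like growth factor and imprinted genes had a median of 0.07. The most abundant, H19 and Igf2, had 0.10 and -0.05, and Igfbp3, which binds these growth factors, had 73.1, 86.7, 96.4 and 80.4 CPM against 97.2, 112, 103 and 97.3 CPM (0.28).

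Cell cycle genes had 13 of 20 above 0 and a median of 0.06 at 5 MPa. At 50 MPa, against the same controls, 19 of 20 lay above 0 with a median of 0.34. Mki67, a marker of dividing cells, had 47.9, 54.5, 73.3 and 74.2 CPM in controls and 51.4, 69.9, 76.0 and 67.0 CPM at 5 MPa. Ccnb2, a mitotic cyclin, had 2.03 to 3.72 CPM against 3.85 to 4.72 CPM. Circadian clock genes had a median of 0.05. Cholesterol synthesis genes had 7 of 20 above 0 and a median of -0.09. Dhcr7, the last enzyme of the pathway, had 10.4 to 11.8 CPM in controls and 8.01 to 9.7 CPM at 5 MPa, without overlap, at -0.29, and Sc5d, a step before it, had -0.29 with overlapping groups.

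Markers of other cell types were measured in both groups. The list of skeletal muscle had a median of 0.01 over 22 (0.43 without control replicate 4), and its sum was 3873 CPM in control replicate 4, 1636 to 1954 CPM in the other controls and 1874 to 3086 CPM at 5 MPa. Endothelial markers summed to 171 CPM in control replicate 1, to 238 to 245 CPM in the other controls and to 220 to 261 CPM at 5 MPa, so 3 controls lay within the range of the pressed libraries. Macrophage and osteoclast markers had 11 of 14 above 0 and a median of 0.21, with sums of 110 to 157 CPM in controls and 142 to 201 CPM at 5 MPa. The macrophage gene Adgre1 had 8.89, 7.5, 8.58 and 6.89 CPM in controls and 13.1, 12.5, 14.9 and 8.73 CPM at 5 MPa (log2 fold change 0.64, standard error 0.18, unadjusted p = 0.00289 in edgeR), while the complement gene C1qa had -0.19. Mast cell and neutrophil markers had 5 of 6 above 0 and a median of 0.19, with the mast cell proteases Mcpt4 and Tpsb2 at 0.41 and 0.12. The member below 0, Mpo, a granule enzyme of neutrophils, had 0.81 to 3.07 CPM against 0.408 to 1.48 CPM (-1.24, or -0.78 without control replicate 3). Of 12 erythroid markers only 2 passed the filter, Epb42 at -0.42 and Hbb-bs at -0.81 (-0.14 without control replicate 2). Nerve and Schwann cell markers had a median of 0.01, with Prph, a neuronal filament, at 0.82.

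Epidermal markers set 1 control library apart. Of 19, 9 passed the filter, 9 lay below 0 (4 with an unadjusted p under 0.05 in edgeR), and the median was -1.99. Their sum was 996 CPM in control replicate 2, 14.1 to 23.2 CPM in the other controls and 18.5 to 22.7 CPM at 5 MPa. Dsp, desmoplakin of cell junctions, had 180 CPM in that library and 0.357 to 0.988 CPM in the other controls, beside 0.34 to 1.14 CPM at 5 MPa. Krt10, a keratin of the upper epidermis, had 119 CPM in it and at most 2.01 CPM in any other of the 8. Without this library the median of the list was 0.10. The high values of Endou, Pla2g4e, Fosb and Hspa1a fall in the same library. The part of skin RNA in them was not tested.

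Sex-linked markers varied between the pools of both groups. Xist had 808 to 2641 CPM in controls and 697 to 2166 CPM at 5 MPa, and the Y-linked Uty had 6.21 to 49.8 CPM and 15.4 to 65.7 CPM. Each pool carried both, and the groups overlap.

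**Figure D5:**
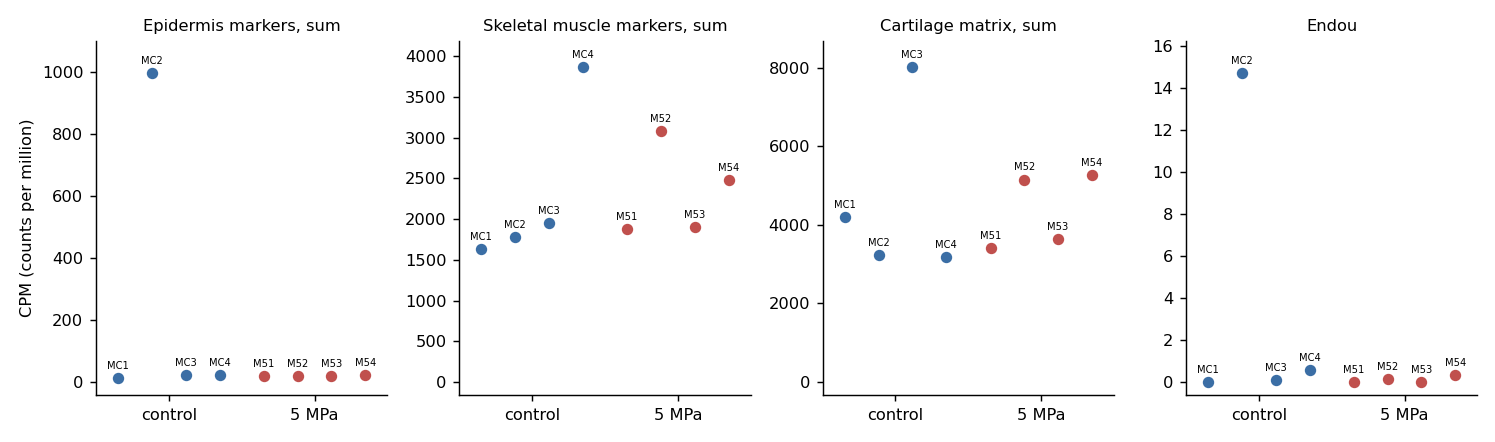
Summed CPM of the epidermis, skeletal muscle and cartilage matrix lists and the CPM of Endou in each of the 8 libraries, where MC1 to MC4 are control replicates 1 to 4 and M51 to M54 are 5 MPa replicates 1 to 4. Control replicate 2 stands apart in epidermis (996 CPM) and Endou (14.7 CPM), control replicate 4 in muscle (3873 CPM) and control replicate 3 in cartilage matrix (8018 CPM), while the 5 MPa libraries lie within the range of the controls.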

How the data were processed

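The authors trimmed the paired-end reads with Trim Galore (0.6.5 per the submitters' processing notes, which name GRCm39, kallisto and DESeq2), estimated transcript abundance with kallisto and brought it to gene level with tximport. The deposited expected counts (estimated, not normalized) of 52178 genes were rounded to whole numbers. Symbols, lengths, GC content and 31-base words came from the GENCODE M21 annotation (GRCm38), which named 48845 genes and is not the authors' annotation, so no coordinates are given.

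The 4 control and 4 pressed libraries were fitted on their own in edgeR 4.0.16 (R 4.3.3) after filterByExpr and TMM scaling, with robust quasi-likelihood tests, two-sided, and Benjamini-Hochberg adjustment over 19022 genes (threshold 0.05). Log2 CPM used a prior count of 2. A library with 0 counts allows up to 3, which covers counting error only. Sequencing runs were read from the study's clustering display.

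Genes named are those past the threshold, then the genes with the lowest unadjusted p up to 10 a direction (groups not overlapping, mean of at least 1 CPM, no predicted genes or pseudogenes), the 2 most abundant, highest and lowest members of each gene list and those with an unadjusted p under 0.05, and the study's own table. Others are named where a count or copy called for it and were chosen after their values were seen, as were copies and partners. The lists and the comparison were chosen with earlier results of these data known.

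Alternatives were run 2 alone, terms for run or library type, 11, 12 or 22 libraries, DESeq2 1.42.0, limma-voom (limma 3.58.1), other scalings and filters, the replicate number as a block, and each library left out. The scripts were tested on simulated data. Some members of the gene lists are not reported here.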

Additional observations from a re-analysis of the deposited data

Results flagged for a closer look

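In each group of 4 libraries, the highest or lowest value was flagged where it stood far from the other 3, by Dixon's test of the gap over the range at the 95% level. Of 452 groups examined, over summed lists and named genes, 38 were flagged, and chance flags about 1 in 20.

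Control replicate 2 stood apart in the epidermis markers, with a sum of 996 CPM (other controls 14.1 to 23.2), 180 CPM of Dsp (0.357 to 0.988), 119 CPM of Krt10 (0.929 to 1.26) and 65.8 CPM of Sfn (2.22 to 3.98). It was also high in Endou with 14.7 CPM (0 to 0.582), Pla2g4e with 3.44 CPM (1.23 to 1.36), Fosb with 4.32 CPM (1.14 to 1.46) and Hspa1a with 86.1 CPM (3.2 to 10.9), and low in Prdx1 with 103 CPM (127 to 128).

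Control replicate 4 had 3873 CPM of skeletal muscle markers (other controls 1636 to 1954), with 2416 CPM of Ttn (1030 to 1215), 285 CPM of Myh3 (111 to 140) and 3.2 CPM of Ckm (1.98 to 2.09), and 0.485 CPM of Prph (0.945 to 1.0). It had 21.7 CPM of Gm12671, 21.7 CPM of Gm10359, 15.0 CPM of Rpl10a-ps1, 10.1 CPM of Gm10052 and 23.8 CPM of Rpl21-ps15, all of which had 0 in the other controls.

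Control replicate 1, the library of run 1, had 171 CPM of endothelial markers (other controls 238 to 245), 119 CPM of Gm10222 (0 to 15.0), 2.96 CPM of Zfp990 (0.338 to 0.68) and 8.64 CPM of Gsg1l (23.6 to 25.4). Control replicate 3 had 252 CPM of Prg4 (7.41 to 26.3) and 69.6 CPM of Cox4i1 (74.4 to 74.8).

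At 5 MPa, replicate 1 had 38.8 CPM of Col10a1 (others 0.68 to 4.5). Replicate 2 had 1776 CPM of endoplasmic reticulum stress genes (1055 to 1158), with 602 CPM of Hsp90b1 (250 to 284) and 22.8 CPM of Ddit3 (17.7 to 18.3), 672 CPM of clock genes (565 to 580), 4.69 CPM of Ccl7 (2.46 to 2.76), 0.951 CPM of Il11 (0.595 to 0.65) and 0.068 CPM of Gm15516 (0). Replicate 3 had 1.49 CPM of Card14 (0.682 to 0.816), 210 CPM of Dcn (167 to 173) and 48.3 CPM of Ctsk (35.4 to 37.5). Replicate 4 had 74.1 CPM of nerve and Schwann cell markers (57.8 to 59.0) and 41.2 CPM of Csf1 (52.9 to 54.4).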

How the results depend on the processing

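The count of 3 called genes depended on the settings. It was 9 with run 2 alone, 6 with a term for the run, 5 with 11 metatarsal libraries, 12 with 12 libraries and terms for run and library type, and 0 with 22 libraries of both tissues and those terms (edgeR; 291 genes higher and 398 lower at an unadjusted p under 0.05). It was 19 with DESeq2, 7 with limma-voom, 5 without robust estimation, 5 with library sizes alone, 98 without a filter on low counts, and 0 with at least 10 counts in every library, which leaves out genes at 0 in a group (346 higher and 271 lower at an unadjusted p under 0.05). Summing the copies with their partners, an alternative chosen after seeing the data, gave 0. Leaving out each library gave 3 to 15, with 9 without control replicate 1 and 15 without 5 MPa replicate 1, 10 of the 15 with at least 90% of their words in other genes. Every setting that called any gene called the same 3 among them. The cause of these differences was not tested.

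The replicate number as a block gave 7. The residual correlations between equal numbers were -0.109, 0.171, 0.0716 and 0.0641, so the numbers were not taken to pair the pools, and 1 of 4 controls correlated best with its own number. Of 179 named genes that were tested, 60 changed sign under at least 1 setting, and 0 of these passed the threshold in that setting or in the values reported. Of 36 list medians, 29 moved by more than the SD between controls under at least 1 setting. With 4 pools a group, a single gene needs a difference well above the median standard error of 0.18 to pass the threshold, and control replicate 1, with 4185557 counts, limits genes of low abundance. Genes that did not pass are not shown to be equal in the groups.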
